A study of Mus musculus with 95 samples.

Results

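Potassium channel genes were examined in peripheral nerve, as sciatic nerve (SCN) and its dorsal root ganglia (DRG), and in kidney, as glomeruli (Glom) and cortex, of db/db and db/+ mice. Members were the genes whose symbol is Kcn followed by a family letter and a number and whose value lay above 0 in at least 5 of the 95 libraries, which took 86 of the 25407 genes in the files. A further 4 symbols of that form, among them Kcnh3, Kcnj6 and Kcnt1, were listed at 0 in all 95 libraries and were left out, and the members nearest to the limit, Kcnab2 and Kcnj1, had a value in 10 libraries. By family, 27 members encode voltage-gated pore subunits, 10 silent voltage-gated subunits, 7 calcium- or sodium-activated pore subunits, 14 inward rectifiers, 14 two-pore-domain channels and 14 accessory subunits.

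The study asked how diabetes and the insulin sensitizer pioglitazone (PIO) change transcripts in nerve and kidney. In each tissue the groups were db/db PIO, db/db, db/+ PIO and db/+, all of the strain BKS.Cg-m +/+ Leprdb/J and 16 weeks old. Mice homozygous for the db allele of the leptin receptor gene are obese and diabetic, and the heterozygous db/+ mice served as controls. PIO was given in the chow at 15 mg/kg for 11 weeks, and the untreated groups received none. There were 6 libraries in each group except DRG db/db, with 5.

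Potassium channels let potassium ions cross the cell membrane and so set the resting potential, end action potentials and recycle potassium across epithelia. Inward rectifiers and two-pore channels carry resting currents, voltage-gated and calcium-activated channels open on depolarization or calcium entry, and silent and accessory subunits form no channel of their own but alter the gating or the surface level of their partners. In the ganglia, satellite glia buffer potassium largely through the inward rectifier encoded by Kcnj10, and in the kidney the same gene serves basolateral potassium recycling in the distal nephron.

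The pore-forming members share a short coding stretch for the selectivity filter, the narrow part of the pore that admits potassium and holds back sodium. The stretch was searched in frame in the longest coding sequence of each member (GENCODE vM1, mm9) as ACNNNNGGNTANGGN or ACNNNNGGNTTNGGN on the coding strand. Of the 86 members, 62 held it, against 208 of 22500 other coding genes (0.924%). All 10 silent subunits, all 14 two-pore genes (11 of them with more than 1 copy), 13 of 14 inward rectifiers, 21 of 27 voltage-gated genes and 4 of 7 calcium- or sodium-activated genes held it, and none of the 14 accessory genes did. The 10 pore genes without these codons were 6 Kcnh genes, Kcnj14, Kcnn1, Kcnn2 and Kcnn3. The stretches of several members on which the results turn are printed 5′ to 3′ to show how near the pore genes are to each other at this site, with the 15 bases of the searched codons in capitals.
Kcnj8: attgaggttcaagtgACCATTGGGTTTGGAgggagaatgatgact
Kcnj13: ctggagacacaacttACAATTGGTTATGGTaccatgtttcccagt
Kcnj2: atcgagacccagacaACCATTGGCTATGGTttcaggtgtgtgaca
Kcnk3, first copy: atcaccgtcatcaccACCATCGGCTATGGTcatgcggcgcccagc
Kcnk3, second copy: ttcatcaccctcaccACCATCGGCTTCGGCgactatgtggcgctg
Kcna5: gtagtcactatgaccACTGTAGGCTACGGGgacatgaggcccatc
Kcnn4: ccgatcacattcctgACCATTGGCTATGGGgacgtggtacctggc

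In mm9 these lie at chr6:142514953-142514997 (minus strand) for Kcnj8, chr1:89285581-89285625 (minus) for Kcnj13, chr11:110933506-110933550 (plus) for Kcnj2, chr5:30924560-30924604 (plus) for the second copy of Kcnk3, chr6:126483748-126483792 (minus) for Kcna5 and chr7:25164202-25164246 (plus) for Kcnn4. The first copy of Kcnk3 is split by an intron, with its ends at 30890951 and 30924286 of chromosome 5. Kcnj8 and the second copy of Kcnk3 hold the TTN codon, and the others printed hold the TAN codon. The other stretches printed lie within a single coding exon each.

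Expression is given as FPKM, the fragments of a transcript scaled for its length and for the mapped fragments of the library. Between 7333 and 10432 genes lay above 0 in a library. An exact 0 was read as missing, because zeros were frequent where a gene was high as well as where it was low. By the member's median over the libraries of the tissue with a value, 64.4% of the entries were 0 over 10 FPKM, 42.0% between 1 and 10 FPKM, 23.6% between 0.1 and 1 FPKM and 46.0% under 0.1 FPKM, and 45 pairs of a member and a tissue had no value at all. When each 0 was entered as a value of 0, 2 of 38 called values on members kept their call, both of them Kcnj10 in SCN. Zeros also fall on genes that define a tissue. In db/+ libraries the summed level of 8 Schwann cell and satellite glia markers in SCN was 29080 to 39720 FPKM with Pmp22, Prx and S100b among the markers at 0 in every library. In the same groups, podocyte markers in Glom summed to 3702 to 5514 FPKM with Nphs1 and Wt1 at 0, and sensory neuron markers in DRG to 3543 to 8015 FPKM with Nefh, Prph, Scn9a and Scn10a at 0. Proximal tubule markers in cortex summed to between 0 and 1548 FPKM, with 5 of 7 at 0 throughout. In whole tissue, fewer cells of a type and less RNA per cell cannot be told apart.

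More members reached 1 FPKM in DRG than in the other tissues. The median over libraries with a value reached 1 FPKM for 40 members in DRG, 22 in SCN, 18 in Glom and 4 in cortex, and 10 FPKM for 14, 3, 0 and 1 members in the same order of tissues. Kcna1, a voltage-gated subunit of the axon beside the node of Ranvier, led in SCN at 71.2 FPKM (14 libraries) and stood at 89.0 FPKM in DRG (14 libraries). The accessory genes Kcnip3 (98.1 FPKM in DRG, 3 libraries) and Kcnab1 (59.9 FPKM in DRG, 9 libraries) and the calcium-activated channel subunit gene Kcnmb4 (32.7 FPKM in SCN, 3 libraries) also ranked high but were listed in few libraries, and the 59.6 FPKM of the two-pore gene Kcnk1 in SCN came from 1 library. In Glom the highest medians were 5.85 FPKM for Kcnj1 (6 libraries), an inward rectifier of the thick limb and collecting duct, 5.17 FPKM for Kcna5 (23 libraries) and 4.91 FPKM for the silent subunit gene Kcnf1 (22 libraries). In cortex they were 30.4 FPKM for Kcnk5 (12 libraries), a two-pore channel of the proximal tubule, 9.31 FPKM for Kcnj10 (13 libraries) and 5.86 FPKM for Kcnq1 (6 libraries).

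**Figure D1:**
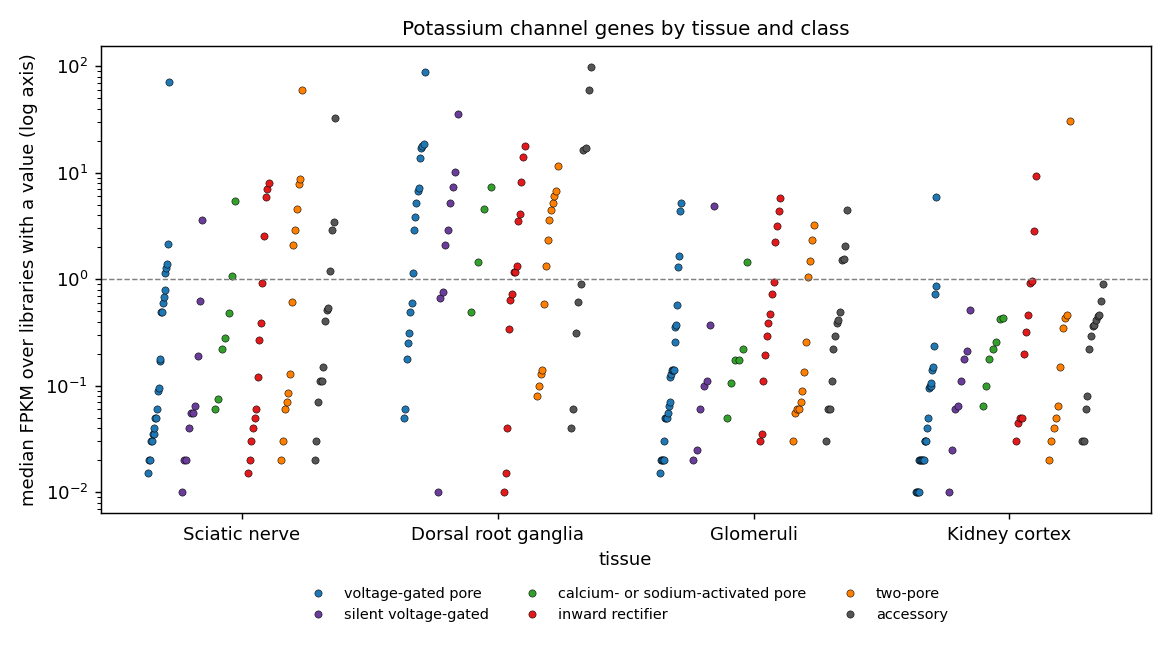
Median FPKM of each member over the libraries with a value (log axis) by tissue, coloured by class, each point standing for 1 gene. The dashed line marks 1 FPKM, which 40 members reach in dorsal root ganglia and 4 in kidney cortex.

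Between tissues of untreated db/+ mice, most members tested differed, as did most genes. The tissues of a group may come from the same mice, which the labels do not tie to libraries, and the fits across tissues took the libraries as independent. The test was limma on log2(FPKM + 1), and a gene was called at a Benjamini-Hochberg adjusted p below 0.05 over all genes tested. In SCN against DRG, 21 of 22 members tested were called, 7 higher and 14 lower in SCN, against 82% of 4632 genes (51.8% higher and 30.1% lower). Higher in SCN were Kcna5, Kcne4, Kcnj2, Kcnj8, Kcnj13, Kcnk5 and Kcnk6, and the lower ones included Kcnj10 (1.43 FPKM in SCN and 15.8 FPKM in DRG), Kcnf1 (0.65 and 10.1 FPKM), Kcna4 (0.058 and 7.63 FPKM) and Kcnq5 (0.507 and 5.13 FPKM), all as means over libraries with a value. The largest rise was in Kcnj13, with means of 9.17 FPKM in SCN and 0.253 FPKM in DRG and a log2 difference of 2.92 ± 0.245 (SE). After median-of-ratios rescaling, which brought the median of all genes to 0.001 where it was 0.337 as deposited, 7 members were higher and 15 lower, and the share of all called genes that were higher in SCN was 49.3%, where it was 63.2% as deposited.

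In Glom against cortex, 12 of 14 members were called, 9 higher and 3 lower in Glom, against 75% of 4167 genes (51.3% higher and 23.7% lower). Kcna5 (4.97 FPKM in Glom and 0.217 FPKM in cortex), Kcnf1 (5.98 and 0.05 FPKM), Kcnab3, Kcne4, Kcnk3, Kcnk6, Kcnmb1 and Kcnn4 were among those higher in Glom. Kcnk5 (1.45 FPKM in Glom and 36.4 FPKM in cortex), Kcnj8 (0.825 and 8.71 FPKM) and Kcnj10 (1.38 and 7.38 FPKM) were lower there. The median of all genes was 0.354 as deposited and -0.058 after median-of-ratios rescaling, with which 8 members were higher and 4 lower. The share of all called genes that were higher in Glom was 68.4% as deposited and 46.6% after that rescaling.

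Diabetes or PIO gave calls for 13 members, among them Kcnj10, Kcnj8, Kcnip2 and Kcne4. A gene was tested in a tissue when it reached 1 FPKM in at least 5 of its libraries and had at least 3 values in both groups. Of the 86 members, 46 passed the first condition in some tissue and 2 in all 4 and 37 were tested in at least 1 comparison. The 13 members called made 28 calls in all, and the share of all genes called is given beside each count below. The other 24 members tested had log2 fold changes between -0.61 and 0.70. Passing the filter through a group where a gene is high favours a difference, so these counts describe the tested members and not all 86. Groups without overlap were counted in SCN, DRG, Glom and cortex, in that order, with the share of all genes tested in brackets. For db/db against db/+ they numbered 1 of 11 members (12%), 7 of 19 (17.4%), 1 of 13 (17.4%) and 2 of 7 (9.4%). For PIO in db/db mice they numbered 0 of 11 (12.7%), 0 of 17 (4.43%), 2 of 12 (18.1%) and 2 of 6 (10%). For db/db PIO against db/+ PIO they numbered 6 of 15 (25.8%), 1 of 19 (8.99%), 2 of 14 (11.2%) and 2 of 7 (23.6%). For PIO in db/+ mice they numbered 3 of 14 (3.4%), 2 of 20 (2.87%), 1 of 15 (1.65%) and 0 of 8 (1.62%). In the grid of fold changes, the column with the highest count of calls compares db/db PIO with db/+ PIO in SCN. Of the columns, it also had the highest share of all genes called, at 33.8%.

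**Figure D2:**
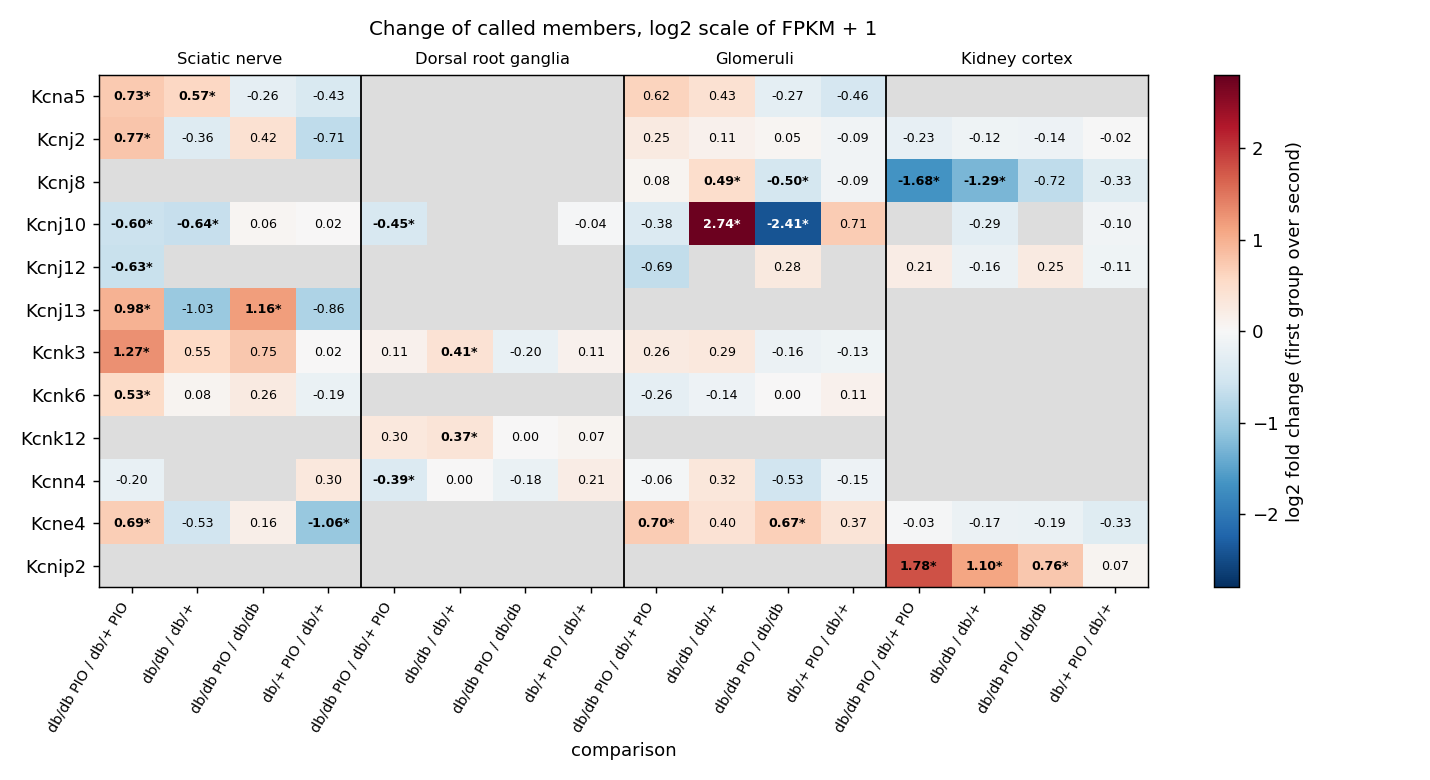
Log2 fold change on the FPKM + 1 scale of called members (rows) in 4 comparisons of each tissue (columns, the group named first over the second). Stars and bold type mark an adjusted p below 0.05, and grey cells were not tested. Kcnj10 in glomeruli has the deepest colours, at 2.74 and -2.41.

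In SCN, db/db against db/+ gave 2 calls among 11 members tested (Kcna5 higher, Kcnj10 lower), against 14.9% of 4233 genes. The count was 4 without db/+ replicate 5 or 6. PIO in db/db mice gave 1 of 11 (Kcnj13 higher), against 10.1% of 3940 genes. db/db PIO against db/+ PIO gave 9 of 15, 7 higher (among them Kcna5, Kcne4, Kcnj2, Kcnj13, Kcnk3 and Kcnk6) and 2 lower (Kcnj10, Kcnj12), against 33.8% of 4402 genes (20.6% higher and 13.2% lower). Of all genes called there, 61.1% were higher, and 49.5% after median-of-ratios rescaling. The median log2 fold change of the 15 members was 0.228 there, against 0.045 over all genes tested. PIO in db/+ mice gave 1 of 14 (Kcne4 lower), against 0.0778% of 5142 genes, that is 4 genes.

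In DRG, db/db against db/+ gave 2 of 19 members (Kcnk3 and Kcnk12 higher), against 4.13% of 3829 genes. That count was 0 without db/db replicate 2 or 5, 1 without db/db replicate 1 or 4 or db/+ replicate 1, 2 or 3, and 4 without db/+ PIO replicate 1. db/db PIO against db/+ PIO also gave 2 of 19 (Kcnj10 and Kcnn4 lower), against 8.64% of 4095 genes. That count was 1 without db/db PIO replicate 6, db/db replicate 1, 2 or 5, db/+ PIO replicate 1 or 6 or db/+ replicate 2 or 3, 4 without db/db PIO replicate 1 and 5 without db/+ PIO replicate 3. limma called 0 of 17 members for PIO in db/db mice, where 0% of 3794 genes passed, and 0 of 20 for PIO in db/+ mice, where 0% of 4153 genes passed. In each of these, 1 member had an unadjusted p below 0.05.

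In Glom, db/db against db/+ gave 2 of 13 members (Kcnj8 and Kcnj10 higher), against 25.4% of 4210 genes. The count was 0 without db/db replicate 1 and 1 without db/db replicate 2 or 4 or db/+ replicate 1, 4 or 5. PIO in db/db mice gave 3 of 12 (Kcne4 higher, Kcnj8 and Kcnj10 lower), against 23.1% of 4158 genes, and 1 without db/db replicate 1. db/db PIO against db/+ PIO gave 1 of 14 (Kcne4 higher), against 8.41% of 4255 genes. PIO in db/+ mice gave 0 of 15 in limma, with 1 at an unadjusted p below 0.05, and 0% of 4419 genes.

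In cortex, db/db against db/+ gave 2 of 7 members (Kcnip2 higher, Kcnj8 lower), against 10.3% of 3925 genes. PIO in db/db mice gave 1 of 6 (Kcnip2 higher), against 3.24% of 3890 genes, and 2 without db/db PIO replicate 1, db/db replicate 6 or db/+ replicate 3. db/db PIO against db/+ PIO gave 2 of 7 (Kcnip2 higher, Kcnj8 lower), against 19.7% of 3865 genes. PIO in db/+ mice gave 0 of 8 in limma, with 0 at an unadjusted p below 0.05, and 0.025% of 4004 genes. The counts of 2 fell to 1 where a library with a Kcnj8 value was left out (db/db replicate 1, 2 or 4 or db/+ replicate 1, 3 or 5 untreated, and db/+ PIO replicate 2, 3 or 6), because Kcnj8 then had 2 values in a group and was not tested.

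Among the inward rectifiers, Kcnj10 (chromosome 1, 174271341 to 174304216 in mm9) was higher in diabetic Glom and lower in diabetic nerve. In Glom the db/db PIO libraries held 0.25, 1.77 and 4.48 FPKM (lowest, median and highest of 6), against 0.46, 3.53 and 6.75 FPKM in db/+ PIO libraries. The values were 12.9, 13.2 and 16.7 FPKM in the 3 db/db libraries with a value, against 0.65, 0.87, 0.89, 2.04 and 2.45 FPKM in db/+ libraries. Every db/db value thus stood above every value of the other groups. The log2 fold change was 2.74 ± 0.506 (SE, adjusted p = 0.00069) for db/db over db/+ and -2.41 ± 0.49 (adjusted p = 0.00188) for db/db PIO over db/db. The same 3 db/db libraries (replicates 1, 4 and 5) enter both comparisons, and with any of them left out the gene was not tested. The effect of PIO differed between db/db and db/+ mice by -3.12 ± 0.645 (adjusted p = 0.00504), 1 of 11 members called for that difference, against 9.71% of 3563 genes. That count was 0 without any of these 3 libraries and 2 without db/+ replicate 2.

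The principal and intercalated cell markers that could be tested moved with Kcnj10 in Glom. They were Elf5, Krt18 and Krt19 for principal cells and Aqp6, Atp6v0d2 and Foxi1 for intercalated cells. For db/db over db/+, 3 of 3 collecting duct principal cell markers tested (7 on the list) and 3 of 3 intercalated cell markers tested (5 on the list) were higher, with median log2 fold changes of 1.957 and 2.714, and under PIO in db/db mice the same counts were lower, with medians of -2.121 and -2.897. The summed intercalated cell markers were 1.53 to 26.3 FPKM in db/db PIO, 48.6 to 102 FPKM in db/db, 1.19 to 59.0 FPKM in db/+ PIO and 1.9 to 47.1 FPKM in db/+ libraries. The summed principal cell markers overlapped (db/db libraries 16.8 to 28.5 FPKM, db/+ libraries 7.97 to 87.1 FPKM), with Aqp2, Aqp3, Scnn1b and Scnn1g at 0 in every db/db library. Of the thick limb and distal tubule list, Umod, Slc12a1 and Slc12a3 were at 0 in every db/db and db/+ library. Other lists moved in these comparisons too. For db/db over db/+, 1 of 4 proximal tubule markers (Slc22a12), 1 of 3 macrophage markers (C1qb), the 1 adipocyte marker tested (Fabp4) and the 1 sensory neuron marker tested (Uchl1) were higher. With PIO in db/db mice, 3 of 4 macrophage markers (C1qa, C1qb and C1qc, median -2.763) and 1 of 4 proximal tubule markers (Slc22a12) were lower, and for db/db PIO over db/+ PIO the same 3 complement genes were lower among 6 tested. The summed macrophage markers were 8.49 to 69.1 FPKM in db/db PIO, 50.9 to 237 FPKM in db/db, 60.2 to 116 FPKM in db/+ PIO and 33.1 to 175 FPKM in db/+ libraries. The part of these cells in the Glom results for Kcnj10, Kcnj8 and Kcne4 was not tested. Outside the kidney, Atp6v0d2 was also called higher in diabetic SCN, with log2 fold changes of 2.933 untreated and 3.787 under PIO. Kcnj16, whose product pairs with that of Kcnj10 in the distal nephron, had 0.21, 3.34, 3.74 and 5.6 FPKM in db/db PIO libraries of Glom, no value in any of the 6 db/db libraries, 2.23, 2.98 and 9.57 FPKM in db/+ PIO and 2.69, 2.76 and 3.28 FPKM in db/+ libraries. Kcnj1 had 1.53 and 6.53 FPKM in db/db PIO libraries, no value in db/db libraries, 1.84, 7.64 and 24.1 FPKM in db/+ PIO and 5.17 FPKM in 1 db/+ library. Neither could be compared between db/db and db/+ mice, and for db/db PIO over db/+ PIO Kcnj16 gave a log2 fold change of -0.52 ± 0.561 (adjusted p = 0.639).

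In SCN, Kcnj10 was lower in diabetes, with or without PIO. It lay between 0.39 and 0.86 FPKM (median 0.545) in db/db libraries, against 1.01 to 1.87 FPKM (median 1.42) in db/+ libraries, and all 24 libraries had a value. With PIO it lay between 0.55 and 0.65 FPKM (median 0.625) in db/db PIO libraries, against 0.99 to 1.88 FPKM (median 1.54) in db/+ PIO libraries. Neither pair of groups overlapped. Every value of both db/db groups lay under 1 FPKM, so Kcnj10 passed the filter here only through the db/+ groups, which favours a difference. The log2 fold changes were -0.64 ± 0.0986 (adjusted p = 0.000151) untreated and -0.60 ± 0.0986 (adjusted p = 7.63e-05) under PIO, and PIO itself moved Kcnj10 by 0.06 in db/db and 0.02 in db/+ mice, neither called. Of the 8 Schwann cell and satellite glia markers, 1 of 3 tested was lower in db/db than in db/+ mice and 2 of 3 were lower in db/db PIO than in db/+ PIO mice. Their sum was 9438 to 27930 FPKM in db/db PIO, 11240 to 35120 FPKM in db/db, 11070 to 40750 FPKM in db/+ PIO and 29080 to 39720 FPKM in db/+ libraries, and their part in the Kcnj10 result was not tested.

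In DRG, Kcnj10 was lower in db/db PIO than in db/+ PIO mice. The values were 9.83, 9.83, 11.1, 11.4 and 13.1 FPKM in db/db PIO libraries, against 14.1, 14.2, 15.3, 15.5 and 18.4 FPKM in db/+ PIO libraries, with no overlap, and the log2 fold change was -0.45 ± 0.0826 (adjusted p = 0.00425). The single db/db value was 13.8 FPKM, against 15.1, 15.4, 16.3 and 16.7 FPKM in db/+ libraries, so that the untreated groups could not be tested. PIO in db/+ mice gave a log2 fold change of -0.04. For db/db PIO over db/+ PIO in DRG, 2 of 2 adipocyte markers tested (Adipoq and Fabp4, median 2.025) and 2 of 7 macrophage markers (Cd163 and Mrc1) were higher, and the 1 Schwann cell and satellite glia marker tested had a log2 fold change of -0.627, with an unadjusted p below 0.05 and no call. The summed adipocyte markers were 25.9 to 186 FPKM in db/db PIO and 4.03 to 87.7 FPKM in db/+ PIO ganglia, and 4 of the 8 glial markers were at 0 in every db/db PIO ganglion. Their part in the results for Kcnj10 and Kcnn4 was not tested.

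In cortex, Kcnj10 gave no call. The values were 13.9 and 15.3 FPKM in db/db PIO libraries, 1.26, 9.5 and 12.1 FPKM in db/db libraries, 3.28, 6.72, 9.32 and 9.33 FPKM in db/+ PIO libraries and 5.57, 6.6, 8.02 and 9.31 FPKM in db/+ libraries. The db/db values spread on both sides of the db/+ values, and the log2 fold change was -0.29 in limma. Both db/db PIO values stood above every other cortex value. With 2 values the group was outside the fit. Exact two-sided permutation tests gave p = 0.2 against db/db (log2 difference 1.20) and p = 0.133 against db/+ PIO (log2 difference 1.01). Each is the smallest p that the test can give with these numbers of values, so that neither could pass 0.05. The diabetes effect on Kcnj10 was larger in Glom than in cortex by 3.02 ± 0.749 (adjusted p = 0.00651).

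**Figure D3:**
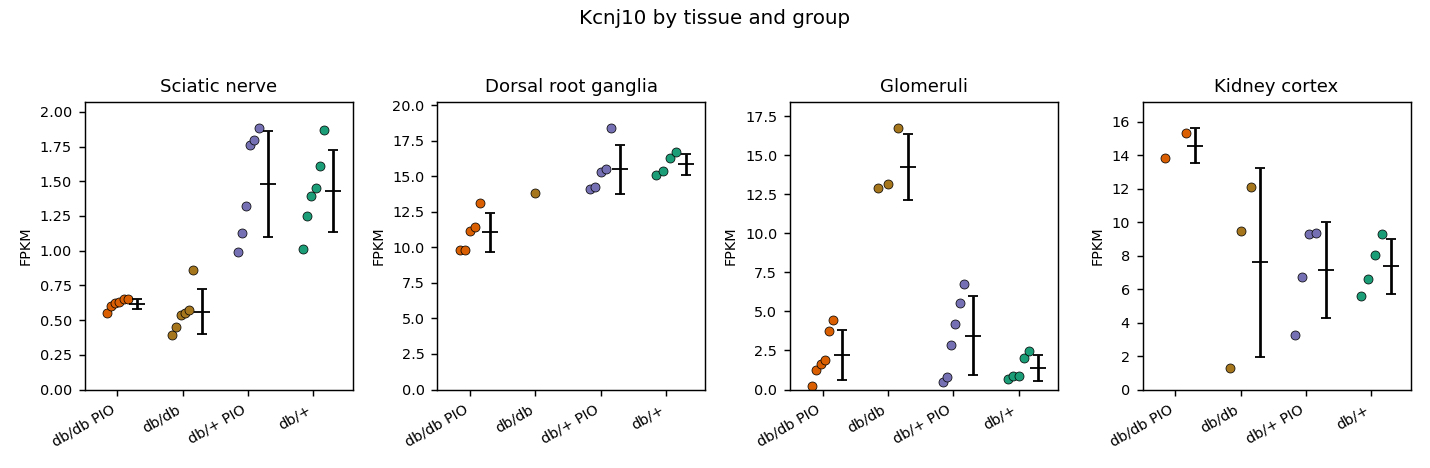
FPKM of Kcnj10 in each library with a value, by group, in 4 tissues with separate axes. Points are libraries, and the bars beside them are the mean and SD. The 3 db/db points in glomeruli, at 12.9 to 16.7 FPKM, stand above all others of that tissue, and in the sciatic nerve both db/db groups stand below both db/+ groups.

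Kcnj8, the pore of an ATP-sensitive channel of vascular smooth muscle and pericytes (chromosome 6, 142513459 to 142519876), fell in the diabetic cortex. It was 2.42, 2.84 and 3.26 FPKM in db/db libraries, against 5.44, 9.22 and 11.5 FPKM in db/+ libraries. With PIO it was 0.99 to 2.33 FPKM (median 1.16, 6 libraries) in db/db PIO libraries, against 5.83, 5.95 and 7.75 FPKM in db/+ PIO libraries. The db/db groups stood below the db/+ groups without overlap, with log2 fold changes of -1.29 ± 0.234 (adjusted p = 0.00231) untreated and -1.68 ± 0.203 (adjusted p = 5.11e-05) under PIO, and 0.72 lower in db/db PIO than in db/db mice with an adjusted p of 0.0664. Of 6 smooth muscle and pericyte markers, none of 5 tested was called in the untreated comparison (median 0.196) and 1 of 5 was higher under PIO, while 3 of 3 macrophage markers tested were lower untreated and 5 of 5 under PIO. The summed macrophage markers were 22.1 to 38.2 FPKM in db/db PIO, 30.7 to 76.7 FPKM in db/db, 39.0 to 103 FPKM in db/+ PIO and 53.8 to 110 FPKM in db/+ libraries, and their part was not tested.

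In Glom, Kcnj8 went the other way at a lower level. It was 0.47 to 1.14 FPKM (median 0.75, 6 libraries) in db/db PIO libraries, 1.02, 1.12, 1.25, 1.91 and 2.27 FPKM in db/db libraries and 0.3, 0.63 and 1.98 FPKM (lowest, median and highest of 6) in db/+ libraries. The groups overlapped, since db/+ replicate 2 stood at 1.98 FPKM. The log2 fold changes were 0.49 ± 0.172 (adjusted p = 0.0391) for diabetes and -0.50 ± 0.172 (adjusted p = 0.039) for PIO in db/db mice. Both calls ended with median-of-ratios rescaling (adjusted p = 0.0532 and 0.054) and with quantile normalization, the diabetes call also in a fit of the compared groups alone (adjusted p = 0.117) and the PIO call with a pseudocount of 0.1 (adjusted p = 0.0511). The diabetes call ended in 6 of 24 fits that left out a library (db/db replicate 1 or 2, db/+ replicate 1, 3, 4 or 5; adjusted p up to 0.122), and the PIO call in 6 of 24 (db/db PIO replicate 1, 2, 5 or 6, db/db replicate 1 or 2; adjusted p up to 0.114). Scaling matters in this tissue, as quantile normalization moved the median of all genes to 0.148 for PIO in db/db mice, where it was -0.035 as deposited. The difference between the diabetes effects in Glom and cortex was 1.78 ± 0.292 (adjusted p = 5.22e-05), and it stayed called in all 42 fits that left out a library and allowed a test.

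Kcnj13, an inward rectifier known from ion-transporting epithelia (chromosome 1, 89282938 to 89291304), was expressed above 1 FPKM in SCN alone among the median levels of the 4 tissues. It was 6.18, 7.9, 8.47, 8.71 and 18.6 FPKM in db/db PIO libraries, 2.65, 2.68, 3.54 and 6.37 FPKM in db/db libraries, 2.48 to 9.94 FPKM (median 3.84, 6 libraries) in db/+ PIO libraries and 4.28, 5.74, 10.3, 10.7 and 14.8 FPKM in db/+ libraries. The high groups were db/db PIO and db/+, and each overlapped the other groups. PIO raised it by 1.16 ± 0.355 on the log2 scale in db/db mice (adjusted p = 0.042) and the change in db/+ mice was -0.86 (adjusted p = 0.28). The difference between these effects was 2.02 ± 0.478 (adjusted p = 0.0217) and was called in all 24 fits that left out a library. The call for PIO in db/db mice ended in 10 of these fits (without db/db PIO replicate 2, 3, 4 or 6, db/db replicate 1, 2, 3 or 6 or db/+ PIO replicate 5 or 6; adjusted p up to 0.104) and without the filter on low values (adjusted p = 0.0709). For db/db PIO over db/+ PIO the log2 fold change was 0.98 ± 0.32 (adjusted p = 0.0232), lost without db/db PIO replicate 6 or db/+ PIO replicate 1 or 3 (adjusted p up to 0.0729).

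Kcnj2 and Kcnj12 encode related strong inward rectifiers known from heart and skeletal muscle. Kcnj2 in SCN was 2.54 to 6.09 FPKM (median 3.73) in db/db PIO libraries, against 1.25 to 2.44 FPKM (median 1.74) in db/+ PIO libraries, 6 values each and no overlap, a log2 fold change of 0.77 ± 0.206 (adjusted p = 0.00654). The untreated groups overlapped, 5 db/db libraries holding 1.99 to 3.01 FPKM and 6 db/+ libraries 1.7 to 6.41 FPKM. The effect of PIO differed between db/db and db/+ mice by 1.13 ± 0.299 for Kcnj2 (adjusted p = 0.0291), and this call ended without db/db replicate 5, db/+ PIO replicate 1, 3 or 6 or db/+ replicate 4 (adjusted p up to 0.0541) and with quantile normalization. Kcnj12 in SCN was 4.0, 5.02, 5.35, 6.19 and 6.59 FPKM in db/db PIO libraries, against 8.25, 8.44 and 9.99 FPKM in db/+ PIO libraries, with no overlap and a log2 fold change of -0.63 ± 0.139 (adjusted p = 0.00595). Kcnj12 had 1 value in untreated db/db and 2 in untreated db/+ nerve and was not tested there. With any of its 3 db/+ PIO libraries (replicates 2, 3 and 6) left out it was not tested under PIO.

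Across SCN, the members called for the difference between the PIO effects in db/db and db/+ mice were Kcne4, Kcnj2 and Kcnj13, 3 of 11, against 6.23% of 3596 genes, and all 3 differences were positive. limma called 0 members for this difference in DRG (3 of 16 at an unadjusted p below 0.05; 0% of 3305 genes) and 0 in cortex (1 of 6 at an unadjusted p below 0.05; 0.031% of 3228 genes).

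The two-pore channels set resting leak currents. Kcnk3, an acid-sensitive leak channel (chromosome 5, 30890543 to 30927643), was 3.63 to 9.22 FPKM (median 5.05, 6 libraries) in db/db PIO nerves, against 0.66, 0.67, 1.88, 2.59 and 3.45 FPKM in db/+ PIO nerves. The groups did not overlap, and the log2 fold change was 1.27 ± 0.347 (adjusted p = 0.008). In untreated nerves it was 1.24, 1.48, 2.92, 3.83 and 6.58 FPKM in db/db libraries, against 0.5, 0.52, 2.51, 2.62 and 3.13 FPKM in db/+ libraries, which overlapped, with a log2 fold change of 0.55 that was not called. Kcnk6, a channel of endosomes and lysosomes, was 2.08 to 3.47 FPKM (median 2.93) in 6 db/db PIO nerves and 1.18, 1.43, 1.61, 1.84 and 2.32 FPKM in db/+ PIO nerves, with a log2 fold change of 0.53 ± 0.13 (adjusted p = 0.00433).

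**Figure D4:**
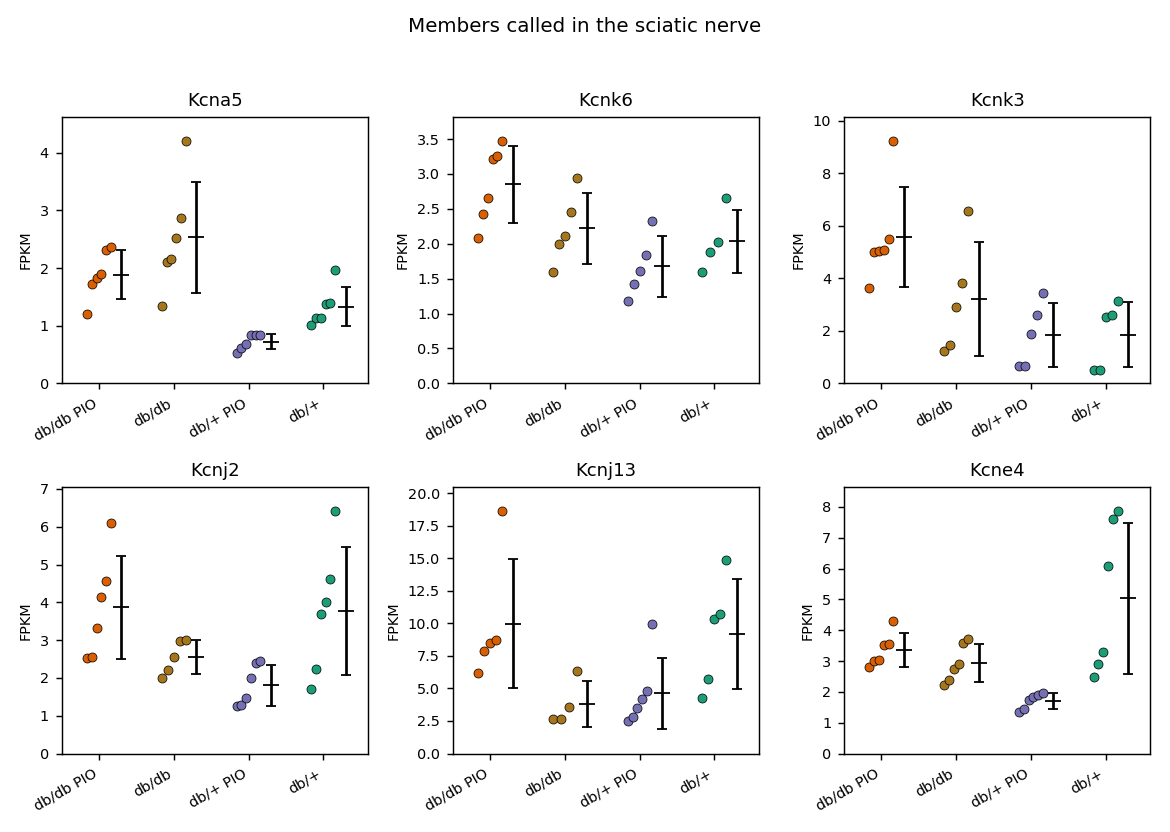
FPKM of 6 called members in the sciatic nerve, 1 panel a gene with its own axis. Points are libraries with a value, and the bars beside them are the mean and SD. Kcne4, Kcnj2, Kcnk3 and Kcna5 are higher in all db/db PIO libraries than in all db/+ PIO libraries, and Kcne4 in db/+ PIO (1.34 to 1.96 FPKM) lies below the other 3 groups.

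Markers of macrophages, muscle, fat and endothelium also differed in parts of these nerve comparisons. In the sums that follow an entry at 0 counts as 0, and 52.8% to 80.6% of the adipocyte entries were at 0. The sum of the 6 adipocyte markers was 7230 to 16830 FPKM in db/db PIO, 2429 to 8591 FPKM in db/db, 2.26 to 9669 FPKM in db/+ PIO and 0 to 2874 FPKM in db/+ nerves, with Adipoq, Plin1, Lep and Cidec at 0 in every library of both db/db groups. The 1 adipocyte marker that could be tested was called higher for PIO in db/db mice and not called for db/db PIO over db/+ PIO. Of the macrophage markers, 3 of 3 tested were higher in db/db PIO than in db/+ PIO nerves, with sums of 0 to 758.5 FPKM against 55.0 to 210 FPKM. Of the skeletal muscle markers, 1 of 4 tested (Ckm) was higher there (median 0.824), with sums of 12.1 to 242.6 FPKM in db/db PIO and 13.5 to 36.2 FPKM in db/+ PIO nerves. With PIO in db/+ nerves, 5 of 5 macrophage markers tested had an unadjusted p below 0.05 in limma (median log2 fold change -0.671), and 0 were called. For the difference between the PIO effects in db/db and db/+ mice, the 1 tested (Mrc1) was called, at 1.189. Ehd3, 1 of 2 endothelium markers tested, was called higher for db/db over db/+ and lower for PIO in db/db mice. The part of these cells in the changes of Kcnk3, Kcnk6, Kcnj2, Kcnj13, Kcna5 and Kcne4 was not tested.

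In DRG, Kcnk3 was 7.65, 8.54 and 8.61 FPKM in db/db libraries, against 5.52 to 6.51 FPKM (median 5.83, 6 libraries) in db/+ libraries. There was no overlap, and the log2 fold change was 0.41 ± 0.0897 (adjusted p = 0.0156). With db/db replicate 2, 4 or 5 left out, 2 values remained and it was not tested. Kcnk12, which encodes a subunit mostly held in the endoplasmic reticulum (chromosome 17, 88145177 to 88197334), was among the high members of DRG, at 11.3, 12.1, 13.7, 14.2 and 15.4 FPKM in db/db libraries and 8.53 to 11.7 FPKM (median 10.2, 6 libraries) in db/+ libraries. The groups overlapped slightly, and the log2 fold change was 0.37 ± 0.0951 (adjusted p = 0.0321). That call was lost without db/db replicate 1, 2 or 5 or db/+ replicate 1, 2 or 3 (adjusted p up to 0.0928), with quantile normalization (adjusted p = 0.0617) and without the filter on low values (adjusted p = 0.0508). Macrophage markers were higher in the same comparison in 4 of 7 tested (median 0.391). Their sum was 42.0 to 70.5 FPKM in db/db and 13.9 to 63.7 FPKM in db/+ libraries. Of the skeletal muscle markers, 3 were tested and none was called (median -1.011, 2 at an unadjusted p below 0.05), while the sum over all 9, with zeros counted as 0, was 2.07 to 441.5 FPKM in db/db and 2.36 to 138 FPKM in db/+ libraries. Their part was not tested.

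Among the voltage-gated genes, Kcna5 encodes a delayed rectifier known from vascular and cardiac muscle and from macrophages. Kcna5 (chromosome 6, 126482571 to 126485573) rose in the diabetic nerve with or without PIO. It was 1.35, 2.34 and 4.2 FPKM (lowest, median and highest of 6) in db/db libraries, against 1.01, 1.25 and 1.96 FPKM in db/+ libraries, and 1.2, 1.86 and 2.37 FPKM in db/db PIO libraries, against 0.53, 0.765 and 0.84 FPKM in db/+ PIO libraries. The untreated groups overlapped and the treated groups did not, with log2 fold changes of 0.57 ± 0.14 (adjusted p = 0.00966) and 0.73 ± 0.14 (adjusted p = 0.000379). Kcna5 stood at higher levels in Glom, where the log2 fold changes of 0.43 untreated and 0.62 under PIO were not called.

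Kcnn4, the intermediate-conductance calcium-activated channel of red cells, lymphocytes and macrophages, was the single member of its class called for diabetes or PIO. In DRG it was 4.75, 5.76, 6.01, 7.12 and 8.22 FPKM in db/db PIO libraries, against 7.77, 8.41, 8.46 and 9.59 FPKM in db/+ PIO libraries. The groups overlapped, and the log2 fold change of -0.39 ± 0.112 (adjusted p = 0.0418) was lost in 11 of 23 fits that left out a library, with adjusted p up to 0.095, and also with quantile normalization (adjusted p = 0.0917), without the filter on low values (0.0639) and in a fit of the compared groups alone (0.142). These were the fits without db/db PIO replicate 2, 4 or 6, db/db replicate 1, 2 or 5, db/+ PIO replicate 1, 4 or 6 or db/+ replicate 2 or 3.

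Among the accessory subunits, Kcnip2 (chromosome 19, 45866329 to 45890551), a calcium-binding partner of the Kcnd pore genes that speeds their trafficking to the surface in heart, was higher in the cortex of diabetic mice, and higher again in those given PIO. It was 2.35, 3.0, 3.16, 4.54 and 5.86 FPKM in db/db PIO libraries, against 0.2 to 0.53 FPKM (median 0.375, 6 libraries) in db/+ PIO libraries. Without PIO it was 1.23, 1.67, 1.76, 1.99 and 2.14 FPKM in db/db libraries, against 0.19 to 0.4 FPKM (median 0.28, 6 libraries) in db/+ libraries. The order was db/db PIO, db/db and then both db/+ groups, with no overlap between db/db PIO and db/db or between either of them and the db/+ groups. All db/+ and db/+ PIO values lay under 1 FPKM, so the gene passed the filter only through the db/db groups, which favours a difference. The log2 fold changes were 1.10 ± 0.136 for db/db over db/+ (adjusted p = 1.18e-05), 0.76 ± 0.142 for db/db PIO over db/db (adjusted p = 0.0076) and 1.78 ± 0.136 for db/db PIO over db/+ PIO (adjusted p = 1.35e-08). All 3 calls stood in each of the 24 fits that left out a library, and the call for PIO in db/db mice ended in a fit of those 2 groups alone (adjusted p = 0.0814). The change with PIO in db/+ mice was 0.07 and was not called.

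In Glom, Kcnip2 stayed below the filter, at 0.12, 0.41, 0.48, 0.62 and 1.14 FPKM in db/db PIO libraries, 0.32 to 0.77 FPKM (median 0.435) in db/db libraries, 0.1, 0.18, 0.2 and 0.51 FPKM in db/+ PIO libraries and 0.08 to 0.44 FPKM (median 0.175) in db/+ libraries. In the fit of both kidney tissues its changes were smaller in Glom than in cortex, by -0.79 ± 0.184 for diabetes (adjusted p = 0.00275) and -0.71 ± 0.193 for PIO in db/db mice (adjusted p = 0.0134). With a pseudocount of 0.1 both calls ended (adjusted p = 0.0511 and 0.17), and with quantile normalization the second did (adjusted p = 0.23). The gene was at 0 in all DRG libraries. Its usual pore partners were low in cortex, with medians of 0.105 FPKM for Kcnd1 and 0.02 FPKM for Kcnd2. Of the marker lists of cortex, none of 3 intercalated cell markers and none of 2 principal cell markers tested was called for db/db over db/+.

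**Figure D5:**
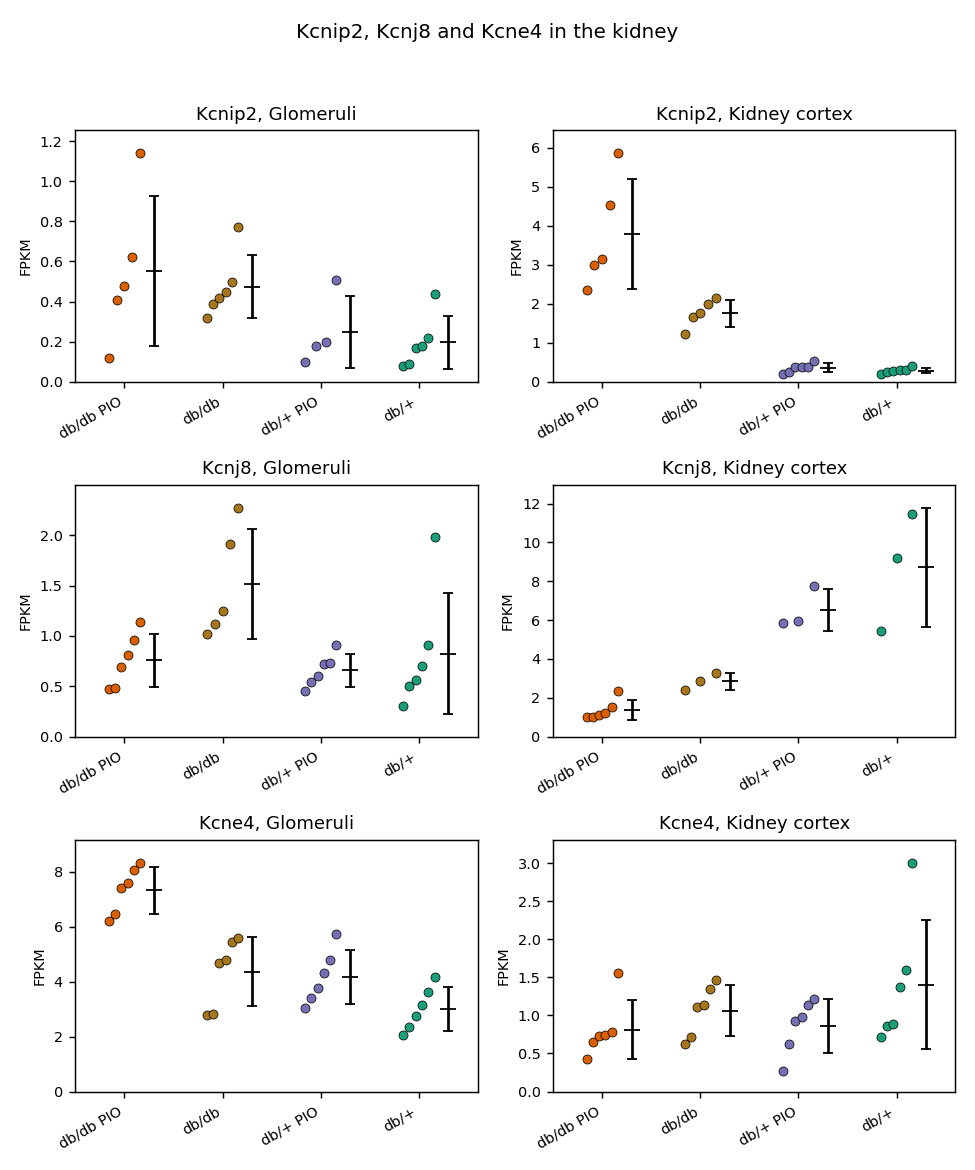
FPKM of Kcnip2, Kcnj8 and Kcne4 in glomeruli (left) and kidney cortex (right), each panel with its own axis. Points are libraries with a value, and the bars beside them are the mean and SD. Kcnip2 in cortex runs from 2.35 to 5.86 FPKM in db/db PIO and from 1.23 to 2.14 FPKM in db/db, above the db/+ groups, and Kcnj8 in cortex runs the opposite way.

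Kcne4, a single-pass subunit that inhibits several voltage-gated channels (chromosome 1, 78813502 to 78816599), had a value above 0 in all 95 libraries. In Glom it was 6.19 to 8.31 FPKM (median 7.49) in db/db PIO libraries, 2.8 to 5.6 FPKM (median 4.74) in db/db libraries, 3.03 to 5.74 FPKM (median 4.04) in db/+ PIO libraries and 2.07 to 4.16 FPKM (median 2.95) in db/+ libraries. All db/db PIO values stood above those of the other groups, with log2 fold changes of 0.67 ± 0.155 over db/db (adjusted p = 0.00361) and 0.70 ± 0.155 over db/+ PIO (adjusted p = 0.00568). Diabetes without PIO gave 0.40 ± 0.155 (adjusted p = 0.0585) and PIO in db/+ mice 0.37 ± 0.155 (adjusted p = 0.997). The PIO effect in db/db mice was larger in Glom than in cortex by 0.86 ± 0.244 (adjusted p = 0.0168), a call that ended with a pseudocount of 0.1 (adjusted p = 0.0501).

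In SCN the low group for Kcne4 was db/+ PIO. It was 2.81 to 4.3 FPKM (median 3.28) in db/db PIO nerves, 2.21 to 3.71 FPKM (median 2.82) in db/db nerves, 1.34 to 1.96 FPKM (median 1.78) in db/+ PIO nerves and 2.48 to 7.86 FPKM (median 4.68) in db/+ nerves, 6 values each. No db/+ PIO value reached the lowest value of another group. The log2 fold changes were -1.06 ± 0.187 for PIO in db/+ mice (adjusted p = 0.0157), 0.69 ± 0.187 for db/db PIO over db/+ PIO (adjusted p = 0.00689) and 1.22 ± 0.265 for the difference between the PIO effects in db/db and db/+ mice (adjusted p = 0.0133). The db/+ nerves split into replicates 2, 3 and 4 at 6.07 to 7.86 FPKM and replicates 1, 5 and 6 at 2.48 to 3.28 FPKM. The PIO call in db/+ mice was lost without db/+ PIO replicate 3 or db/+ replicate 3 (adjusted p up to 0.0647) and in a fit of those 2 groups alone (adjusted p = 0.197).

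The tissues were also set against each other for the effects themselves. For diabetes in SCN minus DRG, 1 of 14 members was called, against 9.42% of 3268 genes: Kcnj13, at -1.24 ± 0.366 (adjusted p = 0.0272), with means of 3.81 FPKM in db/db and 9.17 FPKM in db/+ nerves, and 0.444 FPKM in db/db and 0.253 FPKM in db/+ ganglia. It was lost without SCN db/db replicate 1 or 6 or SCN db/+ replicate 3 or 4 (adjusted p up to 0.0672), and the count was 2 without SCN db/db replicate 5 or DRG db/db replicate 4 and 3 without SCN db/+ replicate 6. For PIO in db/db mice, limma called 0 of 15 in SCN minus DRG, with 3 at an unadjusted p below 0.05 and 4.37% of 3156 genes. In Glom minus cortex, diabetes gave 3 of 13 (Kcnj8 and Kcnj10 positive, Kcnip2 negative), against 14.3% of 3415 genes, and 1 without cortex db/db replicate 2 or 4. PIO in db/db mice gave 2 of 11 there (Kcne4 positive, Kcnip2 negative), against 10.9% of 3306 genes.

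A list of other genes of potassium handling gave calls for diabetes or PIO in SCN and cortex. The list held 41 genes of the sodium pump, potassium-chloride cotransport, their kinases, pacemaker channels and channel partners, of which 40 were in the files. Between db/db PIO and db/+ PIO nerves, 5 of 7 tested were called, against 33.8% of all genes. The pump subunit gene Atp1b1 (means of 4.86 FPKM in db/db PIO and 2.12 FPKM in db/+ PIO, log2 fold change 0.88 ± 0.219, adjusted p = 0.00365) and the kinase gene Wnk4 (1.51 and 0.71 FPKM, 0.55 ± 0.153, adjusted p = 0.00902) were higher. The glial pump subunit gene Atp1b2 (35.0 and 59.4 FPKM, -0.73 ± 0.117, adjusted p = 0.000116) and Amigo1, a cell adhesion gene (6.7 and 10.6 FPKM, -0.58 ± 0.0994, adjusted p = 0.000397) were among the lower ones. Atp1b2 was also lower with PIO in db/db nerves (35.0 FPKM in db/db PIO and 53.7 FPKM in db/db, -0.59 ± 0.117, adjusted p = 0.00369), 1 of 6 tested against 10.1% of all genes, and Amigo1 in db/db against db/+ nerves (7.35 and 9.6 FPKM, -0.34 ± 0.0962, adjusted p = 0.0275), 1 of 6 tested against 14.9% of all genes. In cortex, Lrrc52, a leucine-rich partner of large-conductance channels, was higher in db/db than in db/+ mice, untreated (2.42 and 1.35 FPKM, 0.53 ± 0.121, adjusted p = 0.00614, 1 of 8 tested against 10.3% of all genes) and under PIO (2.10 and 1.04 FPKM, 0.61 ± 0.116, adjusted p = 0.000793, 1 of 6 tested against 19.7% of all genes). The effect of PIO differed between db/db and db/+ nerves for Atp1b2 (-0.70 ± 0.166, adjusted p = 0.0218) and for the pacemaker channel gene Hcn4 (2.78 ± 0.768, adjusted p = 0.0388), with Hcn4 means of 3.45 FPKM in db/db PIO and 0.842 FPKM in db/db, and of 0.618 FPKM in db/+ PIO and 6.46 FPKM in db/+ nerves. Hcn4 was spread widely within groups, from 0.2 to 13.3 FPKM in the 3 db/+ libraries with a value. Between tissues of db/+ mice, Atp1b2 was higher in SCN than in DRG and higher in Glom than in cortex, Hcn3 and Lrrc55 were lower in SCN than in DRG, and Lrrc52 was lower in Glom than in cortex. In limma, 0 of 5 were called in DRG and 0 of 3 in Glom for db/db over db/+, with 1 at an unadjusted p below 0.05 in each.

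Members that stay near or under 1 FPKM enter only when the filter on low values is lifted, and the genes named from that fit were chosen after their values were seen. In Glom, 6 of 46 members were then called for db/db over db/+ (19% of 7505 genes) and 8 of 43 for PIO in db/db mice (18% of 7321 genes). Kcns3, a silent subunit gene, was 0.13 to 0.58 FPKM in 5 db/db PIO libraries, 0.7 to 1.18 FPKM in 5 db/db libraries and 0.22 to 0.43 FPKM in 5 db/+ libraries, with log2 fold changes of 0.57 ± 0.0953 for diabetes (adjusted p = 0.000464) and -0.59 ± 0.0953 for PIO (adjusted p = 0.000372). Kcnh5, a voltage-gated gene, was 0.02 to 0.14 FPKM in 4 db/db PIO libraries, 0.18 to 0.99 FPKM in 6 db/db libraries and 0.01 to 0.17 FPKM in 6 db/+ libraries, with log2 fold changes of 0.55 ± 0.103 (adjusted p = 0.000908) and -0.52 ± 0.115 (adjusted p = 0.00359). Neither gene's db/db values overlapped those of db/+ or db/db PIO, though Kcnh5 reached 0.29 FPKM in db/+ PIO libraries, inside the db/db range. Kcnj13 and Kcnn3 were likewise called higher in db/db and lower with PIO, and Kcnip4 was called higher with PIO. The db/db libraries are again shared by both comparisons.

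In cortex without the filter, 8 of 53 members were called for db/db over db/+ (8.09% of 7598 genes) and 8 of 51 for db/db PIO over db/+ PIO (14.3% of 7475 genes). Kcnh1, a slow voltage-gated channel, was 0.02 to 0.12 FPKM in 5 db/db libraries, against 0.16 to 1.08 FPKM in 4 db/+ libraries, and 0.07 to 0.11 FPKM in 6 db/db PIO libraries, against 0.31 to 0.87 FPKM in 3 db/+ PIO libraries, with no overlap and a log2 fold change of -0.55 in both. Kcnk6 and Kcnn4 were lower in both comparisons as well, Kcna3 in the first and Kcnk2 and Kcnmb1 in the second. Kcna7 and Kcnab3 were higher in the first and Kcna5 in the second. The study listed Kcnh1 in Glom, as lower with diabetes and higher with PIO in db/db mice. It was not among the members called in Glom here, where its median was 0.355 FPKM over 20 libraries with a value. In SCN, 15 of 45 were called for db/db PIO over db/+ PIO (22.7% of 7804 genes), among them Kcnip2 at 0.35 to 1.33 FPKM in 5 db/db PIO libraries and 0.09 to 0.51 FPKM in 5 db/+ PIO libraries, with a log2 fold change of 0.56 ± 0.156 (adjusted p = 0.0145).

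Some members had too few values to compare. Kcnk1, a weakly inward-rectifying two-pore channel of kidney tubules, was 0.56 to 2.97 FPKM in 4 db/db PIO libraries of Glom, 8.82 and 12.1 FPKM in 2 db/db libraries, 0.81 to 3.64 FPKM in 6 db/+ PIO libraries and 0.77, 1.01 and 2.02 FPKM in db/+ libraries, and both db/db values stood above the rest. Kcnj15, an inward rectifier of kidney epithelium, was 1.16 FPKM in 1 db/db library of Glom and 0.35 and 0.56 FPKM in 2 db/+ libraries, and in SCN it had no value in either db/db group, against 0.14 to 0.42 FPKM in 5 db/+ PIO libraries and 0.1 to 1.74 FPKM in 4 db/+ libraries. The cardiac accessory gene Kcne1 had a value in 13 libraries, none of them in cortex, with 0.77 FPKM as its highest. The study, with its own test on reads, listed Kcne1 and Kcnk1 in Glom as higher with diabetes and lower with PIO in db/db mice. Kcnc2, a fast voltage-gated gene of neurons, had a value in 26 libraries and in none of DRG.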

How the data were processed

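Poly(A) RNA from 95 libraries of SCN, DRG, Glom and kidney cortex was sequenced. The authors aligned reads with TopHat and Bowtie and deposited FPKM values per gene from Cufflinks; the build was mm9 per the submitters' processing notes, and for the versions of these tools the sources used here give nothing. The files hold no counts, and the study gives read numbers as means by tissue, so the depth of a single library was not used here. The Cuffdiff test of the study cannot be repeated from FPKM. Groups were taken from the sample labels. A value of exactly 0 was treated as missing.

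Within each tissue, log2(FPKM + 1) of all 4 groups was fitted in 1 linear model with limma 3.58.1 (R 4.3.3), with a mean-variance trend, for genes at 1 FPKM or more in at least 5 libraries and holding 3 or more values in both groups of a comparison. Fold changes are on that scale, which understates the change of low genes. p-values are two-sided, were adjusted by Benjamini-Hochberg over all genes tested, and measure the spread between libraries. SCN with DRG, and Glom with cortex, were fitted together to compare tissues, with libraries taken as independent although tissues may share mice. Kcnj10 in cortex, with 2 values in a group, was compared by exact permutation (scipy 1.17.1). Summaries used Python 3.11.15, numpy 2.4.6 and pandas 2.3.3. Library pairs with identical values numbered 0. The model was run on simulated data that kept the observed zeros, so that run could not check the reading of zeros as missing. Gene positions and coding sequences came from GENCODE vM1.

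Named were Kcnj10, each member called for diabetes or PIO, the 3 highest members of each tissue, genes the study names (among them Kcne1, Kcnh1, Kcnk1, Kcnj15 and Kcnc2) and called genes of potassium handling; other genes were named after their values were seen. Some genes and 1 sequence that these rules take are not reported here. Members and lists were chosen with earlier results of these data known. Alternatives were a pseudocount of 0.1, no filter, zeros as values, at least 5 values a group, median-of-ratios and quantile scaling, a replicate block, fits of the compared groups alone, and each library left out.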

Additional observations from a re-analysis of the deposited data

Results flagged for a closer look

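In 5 of 56 combinations of a named member and a group of 4 to 6 libraries, 1 library stood far above the rest by Dixon's criterion, which chance meets in about 1 of 20. These were Kcnj13 in SCN db/db PIO replicate 6 (18.6 FPKM) and in SCN db/+ PIO replicate 4 (9.94 FPKM), Kcnk3 in SCN db/db PIO replicate 1 (9.22 FPKM), Kcnj8 in Glom db/+ replicate 2 (1.98 FPKM) and Kcne4 in cortex db/db PIO replicate 3 (1.55 FPKM). The effects of PIO on Kcne4, Kcnj13 and Kcnj2 in SCN differed between db/db and db/+ mice by 1.22, 2.02 and 1.13 on the log2 scale, and that on Kcnj10 in Glom by -3.12, each past the threshold of the limma test of the difference.

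Between tissues, the diabetes effect on Kcnj13 differed by -1.24 (SCN minus DRG), and those on Kcnj10, Kcnj8 and Kcnip2 by 3.02, 1.78 and -0.79 (Glom minus cortex). The effects of PIO in db/db mice on Kcne4 and Kcnip2 differed by 0.86 and -0.71 (Glom minus cortex). All 6 passed the limma test of the difference, and with a pseudocount of 0.1 both Kcnip2 differences (adjusted p = 0.0511 for diabetes and 0.17 for PIO) and that of Kcne4 (adjusted p = 0.0501) did not.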

How the results depend on the processing

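Counts of members called are given for db/db over db/+ (diabetes), db/db PIO over db/db (PIO), db/db PIO over db/+ PIO (diabetes under PIO) and the difference between the PIO effects in db/db and db/+ mice (interaction). With each 0 entered as a value, the count was 1 for SCN diabetes and SCN diabetes under PIO, 5 for Glom against cortex, and 0 for SCN PIO, SCN PIO in db/+, SCN interaction, DRG diabetes, DRG diabetes under PIO, all 4 Glom comparisons with calls, Cortex diabetes, PIO and diabetes under PIO, SCN minus DRG diabetes and Glom minus cortex diabetes and PIO, and these fold changes turned round: Kcnj12 in SCN (0.57), Kcnk3 (-0.87) and Kcnn4 (0.22) in DRG, and Kcnj10 in cortex (-0.06 for PIO, -0.64 for diabetes under PIO). With at least 5 values a group it was 0 for SCN PIO, Glom interaction and SCN minus DRG diabetes, 1 for DRG, Glom and Cortex diabetes, Cortex diabetes under PIO and Glom minus cortex diabetes, 10 for SCN against DRG and 7 for Glom against cortex. Without the filter it was 2 for SCN PIO and Cortex PIO, 15 for SCN diabetes under PIO, 1 for DRG diabetes, 6 for Glom diabetes and Glom minus cortex diabetes, 8 for Glom PIO, Cortex diabetes and Cortex diabetes under PIO, 3 for Glom interaction, 5 for Glom minus cortex PIO and 24 for Glom against cortex. Median-of-ratios rescaling gave 4 for SCN diabetes and 1 for Glom diabetes, and quantile normalization 1 for DRG diabetes, Glom diabetes and Glom minus cortex PIO and 2 for SCN minus DRG diabetes. Fits of the compared groups alone gave 0 for SCN PIO in db/+ and Cortex PIO, 7 for DRG diabetes, 1 for DRG diabetes under PIO and Glom diabetes and 2 for Glom diabetes under PIO. A pseudocount of 0.1 gave 2 for Cortex PIO, 1 for SCN minus DRG PIO and 0 for Glom minus cortex PIO. Of 38 called values, median-of-ratios rescaling ended 2, no filter 3, a pseudocount of 0.1 ended 4, quantile normalization 6 and zeros as values 33, with 3 more turned round. The causes were not tested.

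In no pair of groups did every pair of same-numbered libraries deviate together (correlation above 0.1), so the numbers were not taken as pairs. In Glom, 5 of 6 did for db/+ with db/+ PIO (median 0.25, against -0.126 for other numbers). The same share did for db/+ PIO with db/db there (0.19 against -0.047). In SCN, 4 of 6 did for db/+ with db/+ PIO (0.258 against -0.054). The replicate block gave 0 members for DRG diabetes and 1 for DRG diabetes under PIO, and ended the calls of Kcnj12 in SCN (adjusted p = 0.0704), Kcnk12 (0.066), Kcnk3 (0.0525) and Kcnn4 (0.11) in DRG and Kcnj8 in Glom (0.0691 and 0.0646).

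Leaving out 1 library in turn gave counts of 2 to 4 for SCN diabetes, 0 to 1 for SCN PIO, 7 to 11 for SCN diabetes under PIO, 0 to 1 for SCN PIO in db/+, 2 to 3 for SCN interaction, 0 to 4 for DRG diabetes, 1 to 5 for DRG diabetes under PIO, 0 to 3 for Glom diabetes, 1 to 4 for Glom PIO, 0 to 2 for Glom interaction, 1 to 2 for Cortex diabetes and for Cortex PIO, 1 to 3 for Cortex diabetes under PIO, 0 to 3 for SCN minus DRG diabetes, 19 to 21 for SCN against DRG, 1 to 4 for Glom minus cortex diabetes and 10 to 12 for Glom against cortex. For Kcnj10 in cortex the log2 difference ran from 0.41 to 1.68 for PIO and from 0.73 to 1.16 for diabetes under PIO. Of 1015 such fits of called values, 961 kept the call and 54 ended it. Fits in which the gene could no longer be tested are not counted there. Fits without a library from a group outside the comparison are counted. The depth of single libraries was not used here, so counting error could not be set beside any value, and a member at 0 throughout may still be expressed.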
